A study of Mus musculus with 16 samples.

Results

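The 39 genes described here encode the enzymes of glycolysis, the kinase-phosphatases that tune it, the carriers that bring glucose in and take lactate out, and the proteins that decide whether pyruvate enters the mitochondrion, together with Ndufa4l2. They were taken by symbol from a fixed list, and all 39 of the 39 listed symbols, out of 43280 symbols in the files, had 10 or more counts in at least 2 libraries. Whole retinas of wild-type C57BL/6J mice were studied in oxygen-induced retinopathy (OIR), a model in which pups breathe oxygen-rich air, lose part of the growing retinal vasculature, and are then left with an underperfused retina in room air. OIR mice breathed 75% oxygen from postnatal day (P) 7 to P12 and 21% oxygen afterwards, and control mice of the same strain and genotype breathed 21% oxygen throughout. There were 2 OIR and 2 control libraries at P14, 3 OIR and 3 control libraries at P17, and 3 OIR and 3 control libraries at P30, which lie 2, 5 and 18 days after the return to room air. The labels do not give the sex of the animals or the number of retinas behind each library, and nothing in them says that the libraries of a group came from separate animals, so the spread between libraries may be partly technical.

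Glycolysis splits glucose into pyruvate and yields ATP without oxygen, and lactate dehydrogenase turns the pyruvate into lactate so that glycolysis can go on. The retina makes much of its ATP in this way even in air, with photoreceptors as the main lactate producers and Muller glia as partners in the exchange of lactate. In low oxygen, hypoxia-inducible factors bind short DNA elements near many of these genes and raise their transcription, and pyruvate dehydrogenase kinases hold pyruvate back from the mitochondrion.

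Library totals ran from 26077663 to 41716971 counted reads. Levels below are CPM, read counts brought to one common library size after TMM scaling in edgeR. Tests are edgeR's quasi-likelihood tests, Benjamini-Hochberg adjusted across all 19905 tested genes, and called means an adjusted p under 0.05. The p-values measure the spread between these libraries only. A log2 fold change of OIR over control is given with its standard error (SE). Lens RNA and Y-linked RNA differed between groups. The summed level of 20 lens genes ran from 49.3 to 54.0 CPM in OIR and from 95.6 to 1698 CPM in control libraries at P14, without overlap. It ran from 3510 to 86343 CPM in OIR and from 387 to 6639 CPM in control libraries at P17. At P30 it ran from 40958 to 103360 CPM over all libraries. At P14 edgeR called 0 of the 20 lens genes, with 11 lower at an unadjusted p under 0.05. The summed level of 4 Y-linked genes was 0.0451 to 0.143 CPM in OIR and 66.2 to 86.6 CPM in control libraries at P17, and it was below 1 CPM in 1 control library at P14 and 1 OIR library at P30. Sex and OIR therefore cannot be told apart within P17, and 5 of the 39 genes (Pgk1, G6pdx, Pdha1, Pdk3 and Pfkfb1) lie on the X chromosome.

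At P14, 6 of the 39 genes were higher in OIR and 0 were lower, against 0.723% of all tested genes higher and 0.0955% lower (0.819% in either direction). The 6 were Pfkp, Pfkfb3, Pgam1, Slc16a3, Pdk1 and Ndufa4l2. At an unadjusted p under 0.05, 17 were higher and 1 was lower in edgeR at P14, and DESeq2 called 11 higher and 0 lower. The shares of all tested genes above belong to edgeR's adjusted p and are no background for these counts. Without any 1 of the 4 P14 libraries (each control and each OIR replicate in turn), the count was 3, the calls of Pfkfb3, Pgam1 and Pdk1 being lost. At P17, 10 were higher and 1 was lower, against 7.81% and 6.76% of all tested genes (14.6% in either direction). Hk2, Pfkl, Pgk1 and Slc2a1 joined the 6, and Slc16a7 was the one that was lower. Cell type markers moved at P17 as well: 6 of 9 microglia and macrophage genes, 6 of 9 endothelial and 6 of 7 pericyte genes were higher, and 5 of 6 bipolar, 6 of 7 amacrine and horizontal, 4 of 7 ganglion cell and 4 of 7 Muller glia genes were lower (1 of the 7 Muller glia genes was higher). Of 7 cone photoreceptor genes 2 were higher at P17. At P14, 1 of the 7 Muller glia genes was higher and 1 was lower, and no other gene of these lists was called. The part of these markers in the members' values was not tested. With a Y-linked covariate 4 of the 10 were called (Pfkp, Pgk1, Slc16a3 and Ndufa4l2). At P30, 3 were higher (Pfkl, Slc16a3 and Ndufa4l2) and 1 was lower (Pfkfb2), against 4.96% and 3.63% of all tested genes (8.60% in either direction). The higher count at P30 was 6 without control replicate 2 at P17 and 7 without OIR replicate 2 at P30. Cell type markers moved at P30 too: 6 of 9 microglia and macrophage, 3 of 9 endothelial and 2 of 6 bipolar genes were higher. So were 1 of 7 cone and 1 of 7 ganglion cell genes, and 0 genes of these lists were lower. The endothelial list summed to 274 to 289 CPM in OIR and 159 to 174 CPM in control libraries. The part of these markers in the P30 values was not tested. Slc16a3 and Ndufa4l2 were the 2 genes called at all 3 ages, 12 of the 39 were called at 1 age or more, and 27 were called at none. These are whole-retina RNA levels, in which fewer cells of a type and less RNA per cell cannot be told apart.

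The median log2 fold change over the 39 genes was 0.20 at P14, 0.22 at P17 and 0.23 at P30, while that over all tested genes was -0.01, 0.00 and 0.01. In CPM, every OIR library lay above every control library for 24 of the 39 at P14 and below for 7, against 19.7% and 23.4% of all tested genes. The same counts were 11 above and 5 below at P17, against 15.9% and 16.6%, and 11 above and 3 below at P30, against 15.4% and 14.3%. At P17 and P30 the other 23 and 25 genes overlapped between the groups.

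**Figure D1:**
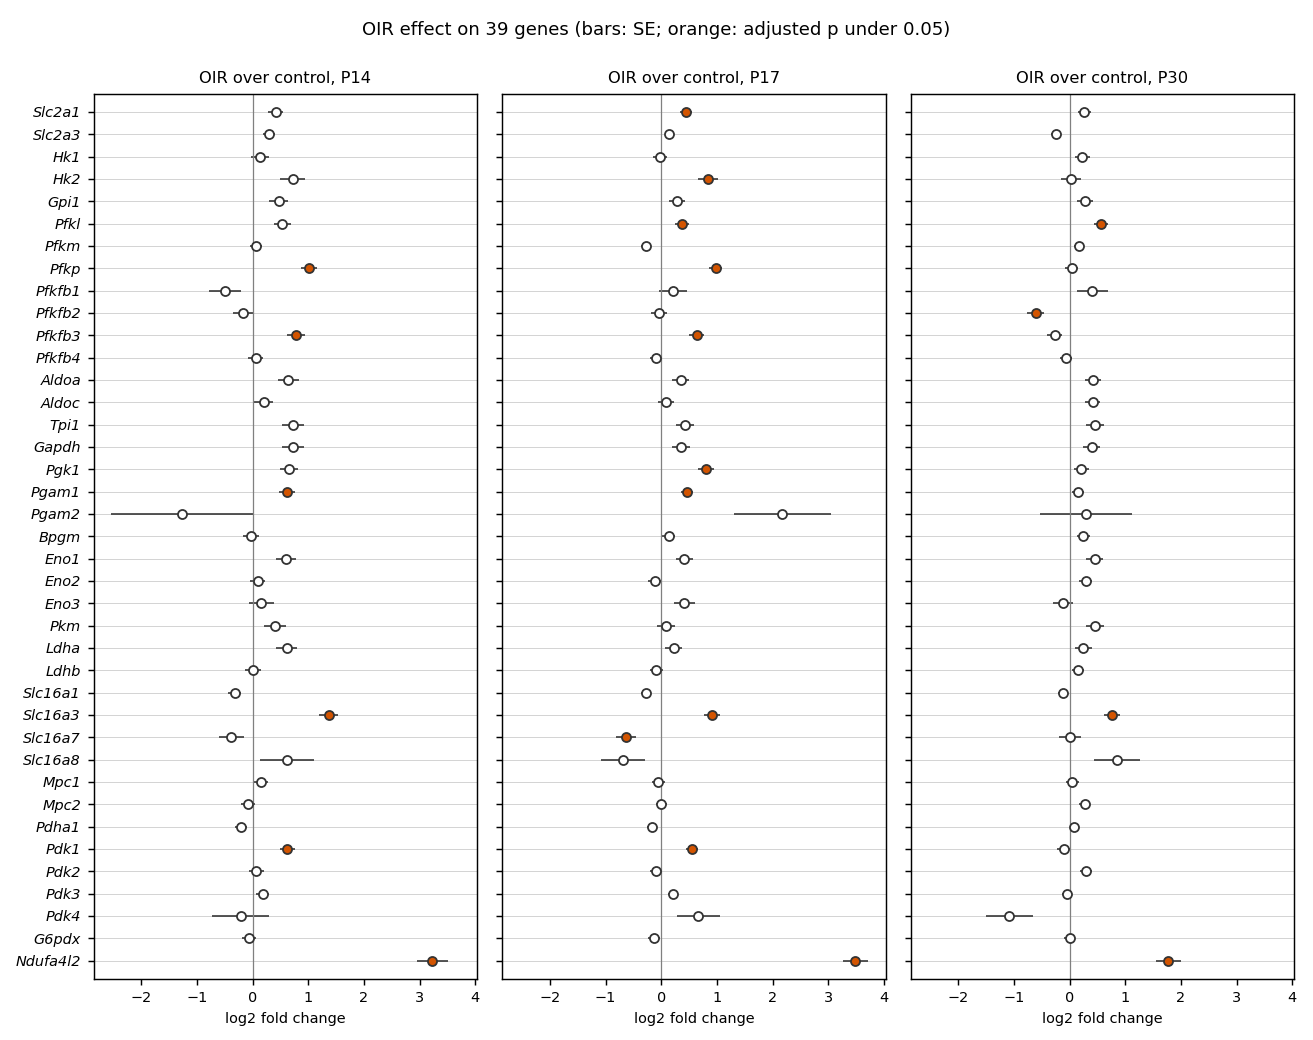
Log2 fold change of OIR over control (x axis) for each of the 39 genes at P14, P17 and P30, with bars of 1 SE and orange points where the adjusted p is under 0.05. Ndufa4l2 stands furthest to the right at each age (3.23, 3.49 and 1.77), and Pfkp is at 1.01, 0.98 and 0.04.

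Calls at P17 that held under all 28 alternative settings tried were those of Ndufa4l2, Slc16a3, Pfkp and Pgk1. The RefSeq promoter windows (build GRCm38.p6) matched 3 of these 4, all but Ndufa4l2. The 250 bases before each RefSeq start are shown because hypoxia-inducible factors are known to bind elements with a core of ACGTG or GCGTG. The RefSeq start of Slc16a3, 120949067, differs from its GENCODE M21 start, 120948480, so the bases shown for it lie inside the GENCODE gene. Capitals mark each such core on either strand, so that CACGT and CACGC are cores on the other strand. The windows are chr11:120948817-120949066 on the plus strand, chr13:6648772-6649021 on the minus strand and chrX:106186850-106187099 on the plus strand, each written 5′ to 3′ along its gene.
Slc16a3: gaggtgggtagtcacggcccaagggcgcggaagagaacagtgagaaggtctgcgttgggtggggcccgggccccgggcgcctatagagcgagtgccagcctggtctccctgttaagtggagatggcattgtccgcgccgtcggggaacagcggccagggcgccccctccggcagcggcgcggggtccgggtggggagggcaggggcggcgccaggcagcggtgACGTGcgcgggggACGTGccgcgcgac
Pfkp: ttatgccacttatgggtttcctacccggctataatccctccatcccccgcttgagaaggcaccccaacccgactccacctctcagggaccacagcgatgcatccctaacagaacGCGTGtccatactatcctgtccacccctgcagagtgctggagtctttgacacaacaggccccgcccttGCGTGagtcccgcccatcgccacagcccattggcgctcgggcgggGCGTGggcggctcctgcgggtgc
Pgk1: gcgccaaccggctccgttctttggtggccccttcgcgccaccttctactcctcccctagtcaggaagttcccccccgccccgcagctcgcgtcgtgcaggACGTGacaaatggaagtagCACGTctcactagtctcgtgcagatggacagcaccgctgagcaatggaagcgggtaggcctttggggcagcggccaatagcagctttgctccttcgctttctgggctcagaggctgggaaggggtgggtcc
Slc16a3 has 2 cores in these bases, Pfkp has 3 and Pgk1 has 2. In windows of 300 bases (250 before and 50 after the start), a core was present in 9 of 9 matched genes among the 10 that were higher in OIR at any age, and in 21 of the 27 other matched genes. It was present in 83.3% of the 36 matched genes of the list and in 46.7% of 27025 genes with a window. A gene counted if any of its windows held a core, so genes with more windows had more chances. By window the shares were 71.4% of 56 for the list and 43.8% of 32851 for all genes. The genes compared were not matched for base composition or expression, and the shares were not tested. Such a match is a string of letters, not a measured binding site.

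Glucose enters retinal cells through facilitative carriers. Slc2a1 encodes GLUT1, the carrier of the blood-retina barrier and of photoreceptors. It had 623, 512 and 626 CPM in the 3 OIR libraries at P17, against 421, 421 and 449 CPM in the 3 control libraries, a log2 fold change of 0.45 ± 0.11 (SE, adjusted p = 0.0118). The groups did not overlap. The call ended without OIR replicate 1 or 3 at P17 (adjusted p = 0.0514 and 0.0583) and with the Y-linked covariate (adjusted p = 0.591, log2 fold change 0.24). The endothelial list, whose cells carry GLUT1, summed to 382 to 490 CPM in OIR and 298 to 347 CPM in control at that age with 6 of 9 genes higher, and its part in the Slc2a1 value was not tested. At P14 the OIR libraries had 465 and 417 CPM and the control libraries 300.1 and 363 CPM, again without overlap, at 0.41 ± 0.14 (SE, adjusted p = 0.256). At P30 the lowest OIR library, at 485 CPM, lay below the highest control library, at 494 CPM, and the log2 fold change was 0.26 ± 0.11 (SE, adjusted p = 0.149). Slc2a3, which encodes the neuronal carrier GLUT3, was not called at any age, with log2 fold changes of 0.30 (adjusted p = 0.305), 0.15 (adjusted p = 0.308) and -0.25 (adjusted p = 0.0816) by edgeR. At P30 it had 119, 124 and 117 CPM in OIR and 142, 150.4 and 136 CPM in control, with every OIR library below every control library.

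Hexokinase traps glucose as glucose 6-phosphate. Hk1, the widespread form, was not called at P14, P17 or P30 (0.13 ± 0.16, -0.02 ± 0.13 and 0.23 ± 0.13 on the log2 scale, SE). It had 701, 614 and 785 CPM in OIR and 649, 839.6 and 641 CPM in control at P17, and the groups overlapped. Hk2, the form of photoreceptors and of fast-growing cells, had 193, 157 and 188 CPM in OIR at P17 and 107, 85.5 and 107 CPM in control. All 3 OIR libraries were above all 3 control libraries, at 0.84 ± 0.18 (SE, adjusted p = 0.00577). At P14 Hk2 had 119 and 107 CPM in OIR and 71.2 and 65.9 CPM in control, a similar ratio without overlap that did not pass the test (0.72 ± 0.22 SE, adjusted p = 0.219). At P30 both groups stood far higher and overlapped, with 561, 450.1 and 295 CPM in OIR and 480.0, 444 and 359 CPM in control (0.03 ± 0.18 SE, adjusted p = 0.945). The call at P17 ended with the Y-linked covariate and without the 2 lens-rich OIR libraries, with an adjusted p of 0.184 and 0.0526. Of 8 rod photoreceptor genes, edgeR called 0 at P14 and 0 at P17 (0 at an unadjusted p under 0.05). Of 7 cone photoreceptor genes it called 0 at P14 and 2 higher at P17 (0 and 3 at an unadjusted p under 0.05). The part of photoreceptor RNA in the Hk2 values was not tested.

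Phosphofructokinase commits sugar to glycolysis and has 3 subunit genes. The platelet-type subunit Pfkp (chr13:6579768-6648777) had the largest log2 fold change of the 3 at P14 and P17. It had 690.3 and 778 CPM in OIR and 362 and 367 CPM in control at P14, and 387, 303 and 421 CPM in OIR and 205, 169.8 and 189 CPM in control at P17. Both gaps were about as wide as the control level itself, at 1.01 ± 0.14 (SE, adjusted p = 0.00174) and 0.98 ± 0.12 (SE, adjusted p = 4.05e-05). At P30 the groups overlapped, with 403, 355 and 337 CPM in OIR and 382, 358 and 328 CPM in control (0.04 ± 0.12 SE, adjusted p = 0.872).

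The liver-type subunit Pfkl followed another course. At P30 it had 902, 755 and 973 CPM in OIR and 632, 581 and 571 CPM in control, with no overlap (0.56 ± 0.12 SE, adjusted p = 0.0149). That call ended without control replicate 2 at P30 and in a fit of only the P30 libraries (adjusted p = 0.0735 and 0.0746). At P17 it had 419.6, 371 and 480.3 CPM in OIR and 295, 385 and 298 CPM in control, where control replicate 2 lay above OIR replicate 2. That call (0.38 ± 0.12 SE, adjusted p = 0.0478) was lost in 19 of the 28 alternative settings. At P14 Pfkl had 424 and 389 CPM in OIR and 279 and 284 CPM in control. It was not called by edgeR at that age (0.53 ± 0.15 SE, adjusted p = 0.147), whereas DESeq2 called it higher. The muscle-type subunit Pfkm was not called at any age and had its lowest value at P17, -0.27 ± 0.09 (SE, adjusted p = 0.0564), where the libraries had 158, 175 and 168 CPM in OIR and 200.3, 219 and 182 CPM in control. Every OIR library lay below every control library at that age, and DESeq2 or RLE scaling in edgeR called Pfkm lower there.

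The 4 Pfkfb genes encode the enzymes that make and remove fructose 2,6-bisphosphate, the strongest activator of phosphofructokinase. Pfkfb3, the form with the highest kinase-to-phosphatase ratio, had 63.0 and 60.9 CPM in OIR and 36.3 and 36.3 CPM in control at P14, at 0.77 ± 0.16 (SE, adjusted p = 0.0293). At P17 it had 66.8, 48.1 and 68.1 CPM in OIR and 37.3, 39.3 and 41.2 CPM in control, at 0.64 ± 0.13 (SE, adjusted p = 0.00334). The groups were apart at both ages. At P30 the direction was the other way and not called, with 57.7, 57.2 and 41.4 CPM in OIR and 56.7, 68.5 and 63.2 CPM in control (-0.27 ± 0.13 SE, adjusted p = 0.203).

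Pfkfb2, the most abundant of the 4 per kb (26.6 CPM per kb over all libraries, against 11.4 for Pfkfb3), was lower in OIR at P30, with 80.2, 77.8 and 53.9 CPM in OIR and 115, 112 and 98.1 CPM in control, at -0.61 ± 0.15 (SE, adjusted p = 0.0207). Its groups overlapped at P14 and P17. About 19.5% of its merged exons overlap other annotated genes, and without a stated strand setting reads there cannot be assigned. Leaving out control replicate 1 or 2 or OIR replicate 3 at P30, or fitting only the P30 libraries, ended the call of Pfkfb2 (adjusted p = 0.0563 to 0.0876). Pfkfb4 (0.05 ± 0.13, -0.09 ± 0.11 and -0.06 ± 0.11 at P14, P17 and P30) and the low Pfkfb1, at 0.526 to 1.75 CPM over the 16 libraries, were not called.

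Below phosphofructokinase the pathway runs through aldolase, triosephosphate isomerase, glyceraldehyde-3-phosphate dehydrogenase, phosphoglycerate kinase, phosphoglycerate mutase, enolase and pyruvate kinase. Phosphoglycerate kinase, encoded by Pgk1 (chrX:106187100-106203699), makes the first ATP of the pathway. It had 526, 529 and 659.8 CPM in OIR at P17 and 278, 387 and 315 CPM in control, so that the lowest OIR library stood well above the highest control library (0.81 ± 0.14 SE, adjusted p = 0.000719). At P14 the libraries were likewise apart, 173 and 159 CPM in OIR and 115 and 96.1 CPM in control. The edgeR call was missed there (0.65 ± 0.17 SE, adjusted p = 0.0962), whereas DESeq2 called Pgk1 higher. At P30 Pgk1 had 502, 430.3 and 529 CPM in OIR and 378, 396 and 491 CPM in control, which overlapped (0.21 ± 0.14 SE, adjusted p = 0.345).

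Pgam1 encodes the main phosphoglycerate mutase. It had 244 and 225 CPM in OIR and 156 and 149.6 CPM in control at P14 (0.61 ± 0.14 SE, adjusted p = 0.0439), and 501, 516 and 634 CPM in OIR and 355, 462 and 377 CPM in control at P17 (0.47 ± 0.11 SE, adjusted p = 0.00887). Neither pair of groups overlapped, whereas at P30 they did (0.15 ± 0.11 SE, adjusted p = 0.421). The P14 call was lost in 14 of the 28 alternative settings.

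Reads of Pgk1, Pgam1, Eno1 and Mpc1 can be split with near-identical copies, so their values are uncertain. Pgk1-rs7 had counts equal to 79.0% of those of Pgk1 in OIR and 70.7% in control at P14, and to 30.0% in OIR and 35.4% in control at P17. Pgam1-ps2 stood at 46.6% of Pgam1 in OIR and 42.7% in control at P14, and at 26.5% and 26.1% at P17. With the copies added in, an alternative chosen after seeing the data, Pgk1 was called at P14 as well, at a log2 fold change of 0.71 ± 0.13 (SE, adjusted p = 0.0110), and its P17 value was 0.75 ± 0.11 (SE, adjusted p = 0.000151). Eno1b had counts equal to 12.8% of those of Eno1 over all libraries, and Mpc1-ps to 52.8% of those of Mpc1. With these added in, neither gene was called in OIR at any age. With its copies added in, Pgam1 had 0.64 ± 0.12 at P14 (SE, adjusted p = 0.0138) and 0.47 ± 0.10 at P17 (SE, adjusted p = 0.00359).

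The other enzymes of this stretch were among the most abundant of the list. Per kb of principal transcript, Gapdh averaged 2329.8, Aldoa 1755, Pkm 1464 and Eno1 1367 CPM per kb over the 16 libraries. By edgeR none of Gapdh, Aldoa, Tpi1, Eno1, Pkm and Gpi1 was called in OIR at any age. DESeq2 called Aldoa, Tpi1 and Gapdh higher at P14, Eno1 at P17, and Aldoa, Tpi1, Eno1 and Pkm at P30. Gapdh had 1823 ± 234 CPM in OIR and 1099.7 ± 166 CPM in control at P14 (SD, n = 2 each), 4120.4 ± 313 CPM in OIR and 3212 ± 799 CPM in control at P17, and 4746 ± 551 CPM in OIR and 3618 ± 446 CPM in control at P30 (SD, n = 3 each). Its log2 fold changes were 0.73 (adjusted p = 0.112), 0.36 (adjusted p = 0.152) and 0.39 (adjusted p = 0.125). Aldoa, the main aldolase, had 0.64 (adjusted p = 0.148), 0.35 (adjusted p = 0.133) and 0.42 (adjusted p = 0.0812) at the 3 ages. Tpi1, which balances the triose phosphates, had 0.73 (adjusted p = 0.126), 0.43 (adjusted p = 0.0881) and 0.46 (adjusted p = 0.0822). Eno1, the main enolase, had 0.60 (adjusted p = 0.197), 0.42 (adjusted p = 0.0751) and 0.45 (adjusted p = 0.0687). Pkm, the pyruvate kinase gene, had 0.39 (adjusted p = 0.587), 0.09 (adjusted p = 0.776) and 0.45 (adjusted p = 0.0889), and Gpi1, the isomerase above phosphofructokinase, had 0.47 (adjusted p = 0.339), 0.29 (adjusted p = 0.205) and 0.27 (adjusted p = 0.239).

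Ldha and Ldhb encode the subunits of lactate dehydrogenase, with Ldha the form that favours lactate. Ldha had 1399 ± 76.7 CPM in OIR and 917 ± 1.51 CPM in control at P14 (SD, n = 2 each), and 1919.9 ± 58.7 CPM in OIR and 1645 ± 363 CPM in control at P17 (SD, n = 3 each). Its groups were apart at P14 and overlapped at P17 and P30, with log2 fold changes of 0.61 (adjusted p = 0.183), 0.22 (adjusted p = 0.38) and 0.24 (adjusted p = 0.317). Ldhb stayed within 0.15 of its control on the log2 scale at each age (0.01, -0.09 and 0.15) and was not called.

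A set of 9 such enzymes (Gpi1, Aldoa, Tpi1, Gapdh, Pgk1, Pgam1, Eno1, Pkm and Ldha) was put together after their values were seen and is described with no test. Their median log2 level over the mean of the age-matched controls was 0.67 and 0.55 in the OIR libraries at P14, against 0.01 and -0.01 in the control libraries. At P14 every OIR library was above every control library for all 9 (19.7% of all tested genes), at P17 for 3 of the 9 (15.9%) and at P30 for 4 of the 9 (15.4%). At P17 it was 0.28, 0.29 and 0.48 in OIR, against -0.17, 0.30 and -0.17 in control, so that control replicate 2 stood level with 2 of the 3 OIR libraries. At P30 it was 0.34, 0.05 and 0.57 in OIR, against -0.09, -0.07 and 0.12 in control, and OIR replicate 2 stood within the control range.

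Leaving out control replicate 2 at P17 raised the count of genes higher in OIR at P17 to 15, with Gpi1, Aldoa, Tpi1, Gapdh and Eno1 newly called higher, Slc16a1 newly called lower and Slc16a7 lost. At P30, Aldoa and Eno1 were newly called higher both without that library and without OIR replicate 2 at P30. The 2 OIR libraries at P17 with much lens RNA were replicates 1 and 2, which had the lower enzyme medians of the 3. The part of these library properties in the result was not tested.

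**Figure D2:**
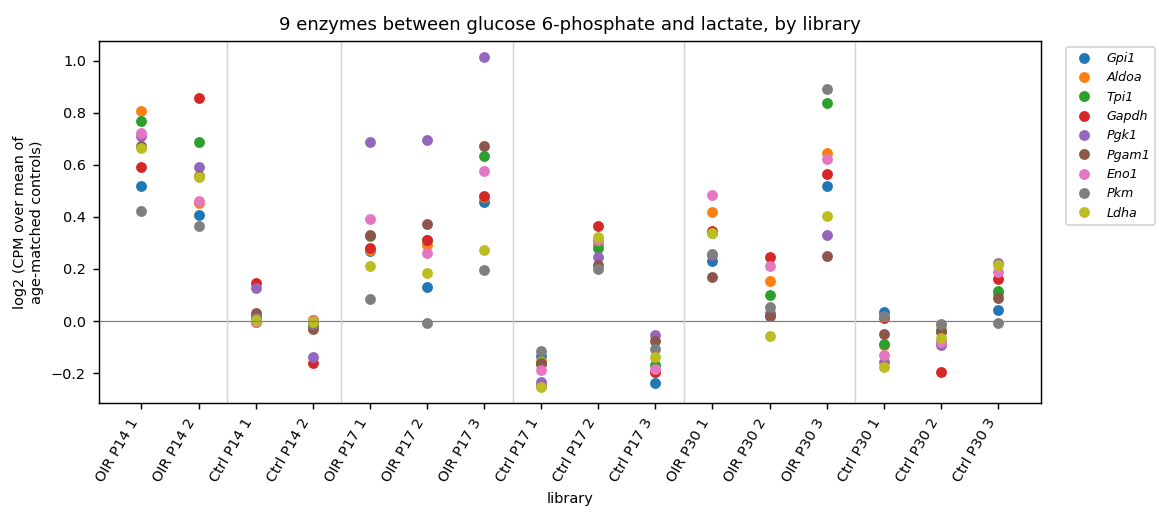
Log2 of CPM over the mean of the age-matched control libraries (y axis) for 9 enzymes in each of the 16 libraries (x axis), with grey lines between groups. The OIR libraries at P14 lie between 0.36 and 0.86, all above both controls, while control replicate 2 at P17, between 0.20 and 0.36, overlaps the range of the OIR libraries of its age.

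Isozymes with a narrower tissue range were not called by edgeR at any age. Aldoc, the aldolase of brain and glia, had log2 fold changes of 0.19 ± 0.18, 0.09 ± 0.14 and 0.41 ± 0.14 (SE; DESeq2 called it higher at P30, adjusted p = 0.0408), and the neuronal enolase Eno2 had 0.09 ± 0.14, -0.11 ± 0.12 and 0.29 ± 0.12. Bpgm, which makes 2,3-bisphosphoglycerate in red blood cells, had -0.03 ± 0.15, 0.13 ± 0.12 and 0.25 ± 0.12, beside a summed red blood cell list of 500 to 1786 CPM in OIR and 231 to 420 CPM in control at P17. Eno3, the muscle enolase, had 26.2, 28.1 and 16.7 CPM in OIR and 18.5, 17.6 and 17.1 CPM in control at P17 (0.41 ± 0.18 SE, adjusted p = 0.161). OIR replicates 1 and 2 stood above the control range and OIR replicate 3 below it.

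Pgam2, the muscle mutase, had 38.4, 19.4 and 1.78 CPM in OIR replicates 1, 2 and 3 at P17, against 3.46, 6.50 and 3.15 CPM in control. The groups overlapped, the 2 high libraries were the 2 with much lens RNA, and edgeR did not call the change (2.18 ± 0.87 SE, adjusted p = 0.133). The skeletal muscle list summed to 7.13 to 9.61 CPM in OIR and 11.3 to 16.8 CPM in control at that age. Within OIR it was 8.95 and 9.61 CPM in replicates 1 and 2, which had the higher Pgam2, and 7.13 CPM in replicate 3. Without OIR replicate 3 at P17, the library of that group with the least lens RNA, both Pgam2 and Eno3 were called higher at P17. DESeq2 called Pgam2 higher at P17 with all libraries (adjusted p = 0.0419). The parts of lens and muscle RNA in these values were not tested.

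Lactate leaves cells through the monocarboxylate transporters. Slc16a3 (chr11:120948480-120960868, GRCm38) encodes MCT4, the low-affinity exporter of strongly glycolytic cells. It had 113 and 102 CPM in OIR and 39.5 and 44.0 CPM in control at P14, 160.0, 124 and 184 CPM in OIR and 76.6, 99.9 and 71.6 CPM in control at P17, and 217, 179 and 225 CPM in OIR and 129, 122 and 116 CPM in control at P30. The groups did not overlap at any of the 3 ages. The log2 fold changes were 1.37 ± 0.17 (SE, adjusted p = 0.00123), 0.92 ± 0.14 (SE, adjusted p = 0.000329) and 0.76 ± 0.14 (SE, adjusted p = 0.00616), and the call held under each of the 28 alternative settings at each age.

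The other lactate carriers were called higher at no age. Slc16a1, which encodes the widespread carrier MCT1, had 172 and 170.0 CPM in OIR and 219.6 and 208 CPM in control at P14, and 256, 231 and 234 CPM in OIR and 298, 261 and 314 CPM in control at P17. Each OIR library was below each control library at both ages, without a call by edgeR (-0.32 ± 0.12 SE, adjusted p = 0.316 and -0.28 ± 0.10 SE, adjusted p = 0.0632). DESeq2 called Slc16a1 lower at P17. Slc16a7, the high-affinity neuronal carrier MCT2, was lower in OIR at P17 at low levels, 4.06, 3.72 and 2.95 CPM in OIR and 5.11, 6.41 and 5.02 CPM in control (-0.63 ± 0.18 SE, adjusted p = 0.0232). Its groups did not overlap at P17. At P30 they did, with 2.34, 2.38 and 2.82 CPM in OIR and 1.97, 2.76 and 2.77 CPM in control. The call was lost in 5 of the 28 alternative settings.

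Slc16a8 encodes MCT3, the carrier of the retinal pigment epithelium, a layer that can come along with a dissected retina. It had 22.2 and 21.4 CPM in OIR and 16.1 and 12.5 CPM in control at P14 (0.61 ± 0.49 SE, adjusted p = 0.815). It had 21.9, 16.1 and 26.3 CPM in OIR and 28.3, 39.7 and 35.8 CPM in control at P17 and was not called (-0.69 ± 0.39 SE, adjusted p = 0.3). The groups were apart in opposite directions at the 2 ages, without a call at either. The pigment epithelium list summed to 868 to 869.9 CPM in OIR and 909.6 to 1657 CPM in control libraries at P14. It summed to 1055 to 1424 CPM in OIR and 1436 to 1586 CPM in control libraries at P17. At P30 Slc16a8 had 6.64, 21.2 and 29.7 CPM in OIR and 11.4, 10.4 and 9.75 CPM in control, a spread in OIR wider than the gap (0.85 ± 0.41 SE, adjusted p = 0.21). The part of pigment epithelium RNA in these values was not tested.

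Pyruvate enters the mitochondrion through the carrier made by Mpc1 and Mpc2 and is oxidised by pyruvate dehydrogenase, whose catalytic subunit gene is Pdha1. The kinases Pdk1 to Pdk4 switch that enzyme off. Pdk1, the hypoxia-responsive kinase, had 67.5 and 63.5 CPM in OIR and 41.0 and 44.2 CPM in control at P14 (0.62 ± 0.13 SE, adjusted p = 0.0328), and 80.3, 58.8 and 77.8 CPM in OIR and 50.8, 47.9 and 48.4 CPM in control at P17 (0.56 ± 0.11 SE, adjusted p = 0.00198). At both ages each OIR library was above each control library. At P30 it had 51.1, 48.2 and 40.6 CPM in OIR and 50.9, 52.3 and 48.1 CPM in control, and the groups overlapped (-0.11 ± 0.11 SE, adjusted p = 0.548).

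The other kinases did not pass the test at any age. Pdk2 had 106, 83.9 and 84.7 CPM in OIR and 90.2, 109 and 95.1 CPM in control at P17, with log2 fold changes of 0.07 ± 0.13, -0.10 ± 0.11 and 0.29 ± 0.11 at the 3 ages (SE). At P30 it had 123, 136 and 147 CPM in OIR and 117, 103 and 114 CPM in control, without overlap. Pdk3 had 0.18 ± 0.11, 0.21 ± 0.09 and -0.05 ± 0.09, with every OIR library above every control library at P14 and P17. Pdk4, the kinase of fasting, rested on few reads, at 0.182 to 0.762 CPM over the 16 libraries, and had -1.08 (adjusted p = 0.112) at P30. Mpc1, Mpc2 and Pdha1 were not called, with values at P17 of -0.05 ± 0.11, -0.0015 ± 0.10 and -0.17 ± 0.09 (SE), although every OIR library lay below every control library for Pdha1 at P14 and P17. G6pdx, the entry enzyme of the pentose phosphate pathway, had -0.07 ± 0.12, -0.13 ± 0.10 and -0.0013 ± 0.10.

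Ndufa4l2 (chr10:127514967-127517154) encodes a small mitochondrial protein related to NDUFA4 and is known as a target of hypoxia-inducible factor that lowers respiration. It had 57.8 and 65.4 CPM in OIR and 6.40 and 6.75 CPM in control at P14, 118, 88.7 and 144 CPM in OIR and 9.55, 11.4 and 10.3 CPM in control at P17, and 23.4, 31.5 and 36.3 CPM in OIR and 6.12, 9.09 and 11.5 CPM in control at P30. The highest control library of each age lay below the lowest OIR library by a wide margin. The log2 fold changes were 3.23 ± 0.28 (SE, adjusted p = 0.000175), 3.49 ± 0.23 (SE, adjusted p = 1.10e-06) and 1.77 ± 0.22 (SE, adjusted p = 0.00116). Those are 9.38-fold, 11.2-fold and 3.41-fold. Its paralog Ndufa4 was not called at any age (-0.16 (adjusted p = 0.876), 0.0009 (adjusted p = 0.998) and 0.31 (adjusted p = 0.152)). Pericytes are known for Ndufa4l2. Of the 7 pericyte list genes 6 were called higher by edgeR at P17, 0 at P14 and 0 at P30 (at an unadjusted p under 0.05, 1 higher and 2 lower at P14 and 4 higher at P30). The median log2 fold change of that list was -0.11 at P14, 1.04 at P17 and 0.43 at P30, and its part in the Ndufa4l2 values was not tested.

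**Figure D3:**
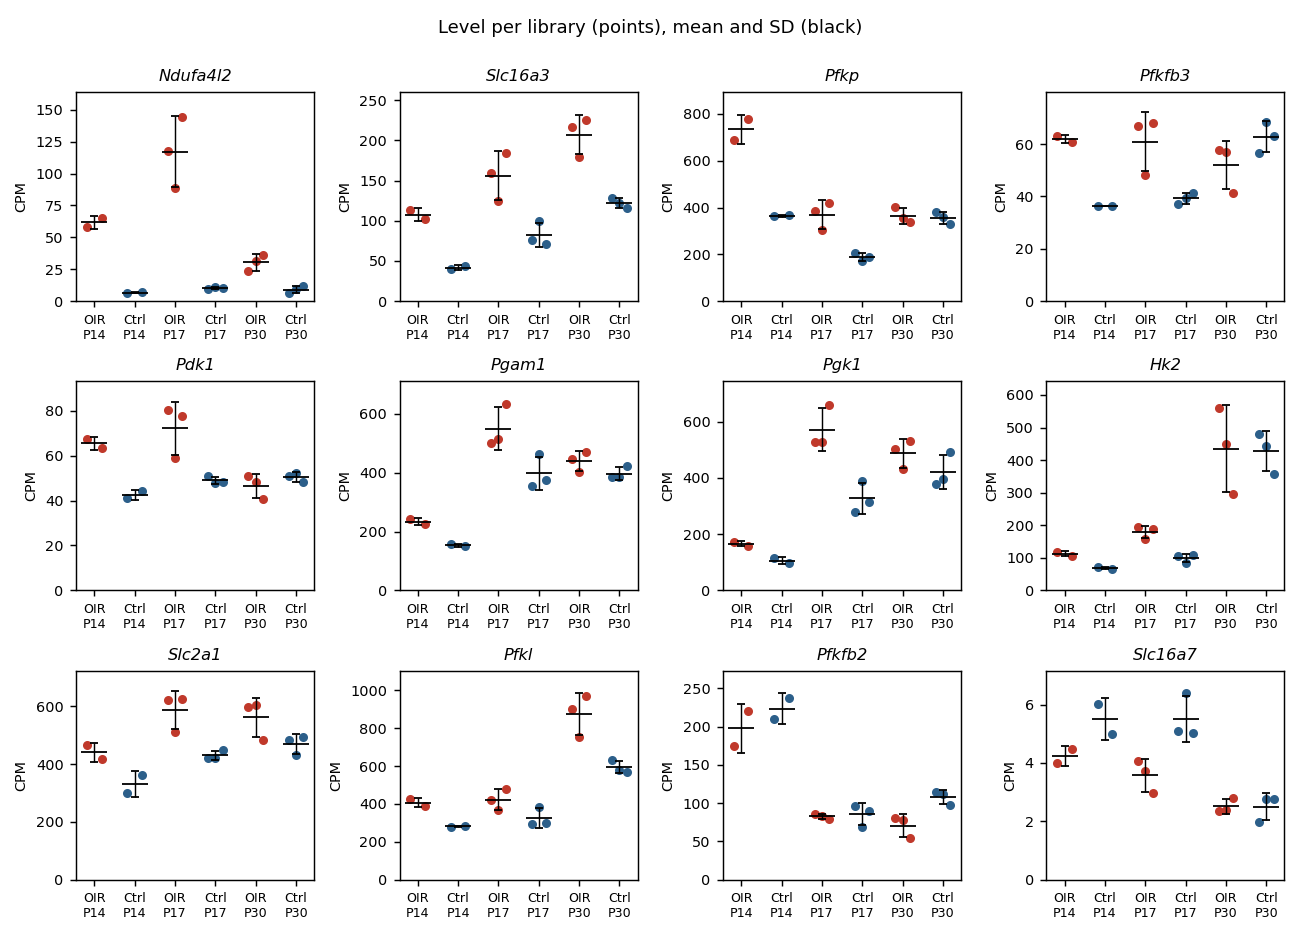
CPM (y axis) of the 12 genes called at 1 age or more, per library (red OIR, blue control), with mean and SD in black. Ndufa4l2 and Slc16a3 keep their OIR and control points apart at P14, P17 and P30, whereas Pfkp, Pfkfb3, Pdk1 and Pgam1 do so at P14 and P17.

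Shares within isozyme families, described with no test, were taken of CPM per kb of principal transcript (GENCODE M21). Pfkp made up 51.6% ± 3.22 of phosphofructokinase in OIR and 40.4% ± 0.413 in control at P14 (SD, n = 2 each), 34.1% ± 2.45 in OIR and 22.6% ± 3.47 in control at P17, and 21.2% ± 2.56 in OIR and 26.0% ± 1.25 in control at P30 (SD, n = 3 each). Slc16a3 made up 32.7% ± 1.29 of the 4 monocarboxylate transporters in OIR and 14.5% ± 1.68 in control at P14, 34.9% ± 3.42 in OIR and 18.3% ± 3.42 in control at P17, and 44.6% ± 4.01 in OIR and 32.5% ± 0.706 in control at P30. Its share was above control in every OIR library at every age.

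Hk2 was 15.2% ± 0.928 of hexokinase in OIR and 9.15% ± 2.18 in control at P17, against 17.0% ± 5.51 in OIR and 18.8% ± 1.47 in control at P30. Pfkfb3 held 36.3% ± 4.80 of its family in OIR and 26.6% ± 3.49 in control at P17, and Pdk1 held 19.1% ± 1.89 in OIR and 13.8% ± 1.46 in control. Ldha dominated lactate dehydrogenase in each group, with 91.2% ± 0.243 in OIR and 87.2% ± 0.339 in control at P14. Shares rest on the transcript lengths: with merged exons instead, Pfkp held 33.3% in OIR and 23.4% in control at P14, and 19.5% in OIR and 11.5% in control at P17. The direction of OIR against control was the same with either length for these shares at P14 and P17. Fixed lengths cannot turn that direction for Hk2 or Ldha, each with a single partner gene. Nor can they for a gene with the largest fold change of its family, so the match is no check of the lengths.

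**Figure D4:**
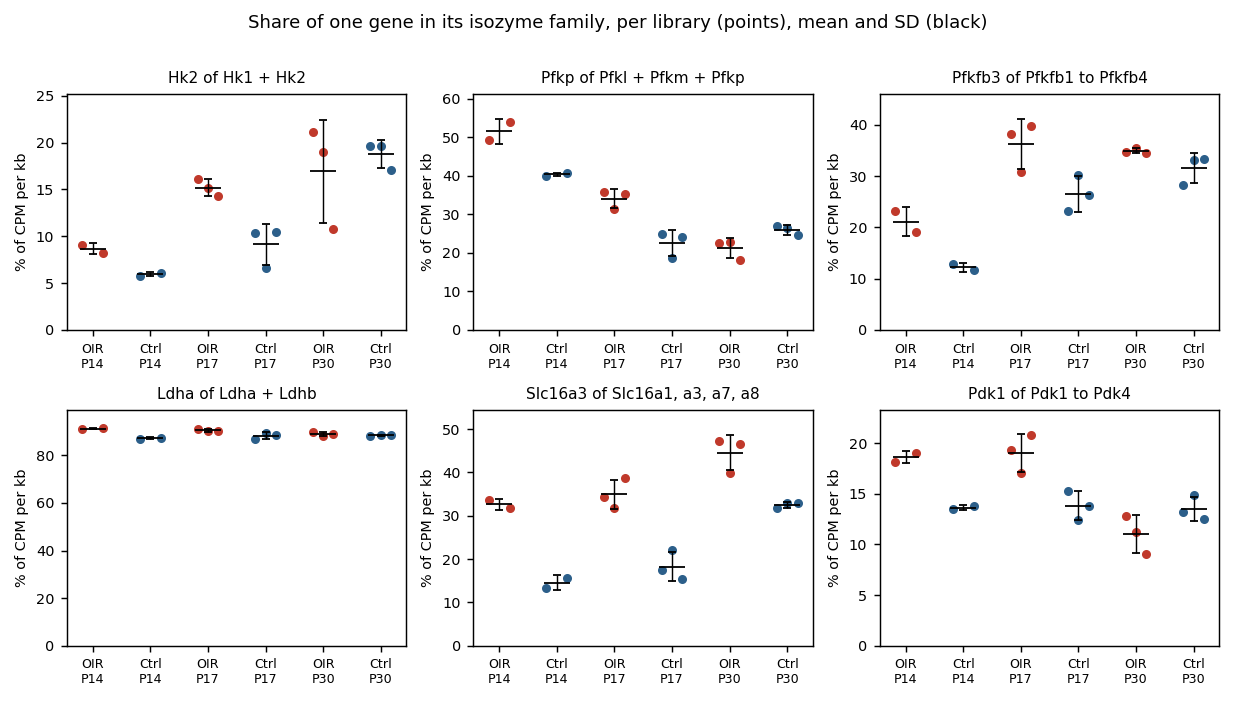
Share of CPM per kb (y axis, %) held by 1 gene of an isozyme family in each library (red OIR, blue control), with mean and SD in black. Slc16a3 holds 32.7%, 34.9% and 44.6% on average in OIR at P14, P17 and P30, and Ldha holds 87.2% to 91.2% on average in the 6 groups.

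The OIR effect was set against itself across ages. Between P14 and P17 the effect did not pass the test of a difference for any of the 39 genes or any of the 19905 genes, 2 of the 39 had an unadjusted p under 0.05, and DESeq2 also called 0 of the 39 (120 of all genes higher and 50 lower). Between P17 and P30, 4 of the 39 had a smaller effect at P30 and 1 a larger one, against 3.84% and 5.45% of all tested genes (9.29% in either direction). The change in the log2 effect (P30 minus P17) was -1.72 ± 0.31 (SE, adjusted p = 0.00483) for Ndufa4l2, -0.94 ± 0.17 (SE, adjusted p = 0.00291) for Pfkp, -0.91 ± 0.19 (SE, adjusted p = 0.0073) for Pfkfb3 and -0.67 ± 0.15 (SE, adjusted p = 0.0124) for Pdk1. It was 0.43 ± 0.13 (SE, adjusted p = 0.0441) for Pfkm, whose call ended in 22 of the 28 alternative settings. The log2 effect of OIR on Pfkm was -0.27 at P17 and 0.16 at P30. For Slc16a3 the change was -0.16 ± 0.20 (SE, adjusted p = 0.656), with no call.

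Hk2 and Pgk1 had changes of -0.82 ± 0.26 (SE, adjusted p = 0.0583) and -0.60 ± 0.19 (SE, adjusted p = 0.0592), outside the threshold in edgeR. DESeq2 called both changes. With near copies added in, Pgk1 reached -0.61 ± 0.15 (SE, adjusted p = 0.0177).

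In the control retina the same genes changed with age. From P14 to P17, 24 of the 39 were higher and 5 lower, against 18.3% and 21.9% of all tested genes (40.2% in either direction). From P17 to P30, 14 were higher and 6 lower, against 14.9% and 13.4% (28.3% in either direction). Without control replicate 2 at P14 the early counts were 15 higher and 3 lower, and without control replicate 2 at P30 the later step had 3 lower. All 9 enzymes between glucose 6-phosphate and lactate named above were higher at P17 than at P14. Pgk1 had 278, 387 and 315 CPM at P17 and 115 and 96.1 CPM at P14, at 1.63 ± 0.16 (SE, adjusted p = 1.16e-06). Gapdh had 1.55 ± 0.19 (SE, adjusted p = 8.46e-06) and Pgam1 1.38 ± 0.13 (SE, adjusted p = 7.40e-07). The shares of the near copies of Pgk1 and Pgam1 were lower at P17 than at P14, and with the copies added in the Pgk1 change was 1.29 ± 0.12 (SE, adjusted p = 7.91e-07).

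Of the 39 genes Hk2 had the largest log2 fold change from P17 to P30 in control, 480.0, 444 and 359 CPM at P30 and 107, 85.5 and 107 CPM at P17 (2.10 ± 0.19 SE, adjusted p = 2.57e-06), while Hk1 had 0.86 ± 0.13 (SE, adjusted p = 0.000114). Pfkp was lower at P17 than at P14 (-0.95 ± 0.13 SE, adjusted p = 2.39e-05) and higher again at P30 (0.92 ± 0.12 SE, adjusted p = 2.68e-05). Pfkfb2 was lower at P17 than at P14 (-1.39 ± 0.16 SE, adjusted p = 6.59e-06). Slc16a3 was higher at each step, 0.99 ± 0.16 (SE, adjusted p = 0.00016) and then 0.56 ± 0.14 (SE, adjusted p = 0.00604). Its call at the later step was lost with scaling by library totals. The mitochondrial carrier gene Mpc1 was higher at P17 (0.86 ± 0.13 SE, adjusted p = 6.44e-05) and lower at P30 (-0.54 ± 0.11 SE, adjusted p = 0.00178), as was Slc16a8 (1.28 ± 0.46 SE, adjusted p = 0.045 and -1.72 ± 0.41 SE, adjusted p = 0.00922), and Slc16a7 was lower at P30 (-1.14 ± 0.18 SE, adjusted p = 0.000218). The early call of Slc16a8 ended in 18 of the 28 alternative settings. Lens RNA was at 387 to 6639 CPM in control libraries at P17 and at 65103 to 103360 CPM at P30. With a lens covariate 2 genes were lower at the later step, the calls of Slc16a1, Slc16a8, Pdk3 and Mpc2 being lost. That covariate also ended the higher calls of Gpi1, Pfkm, Aldoa and Pkm at the later step. The Mpc1 changes with Mpc1-ps added in were 0.86 ± 0.12 (SE, adjusted p = 2.61e-05) and -0.55 ± 0.10 (SE, adjusted p = 0.000794), and 23.1% of the merged exons of Mpc1 overlap an antisense gene. With scaling by library totals, 15 genes were higher from P14 to P17 and 9 from P17 to P30.

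**Figure D5:**
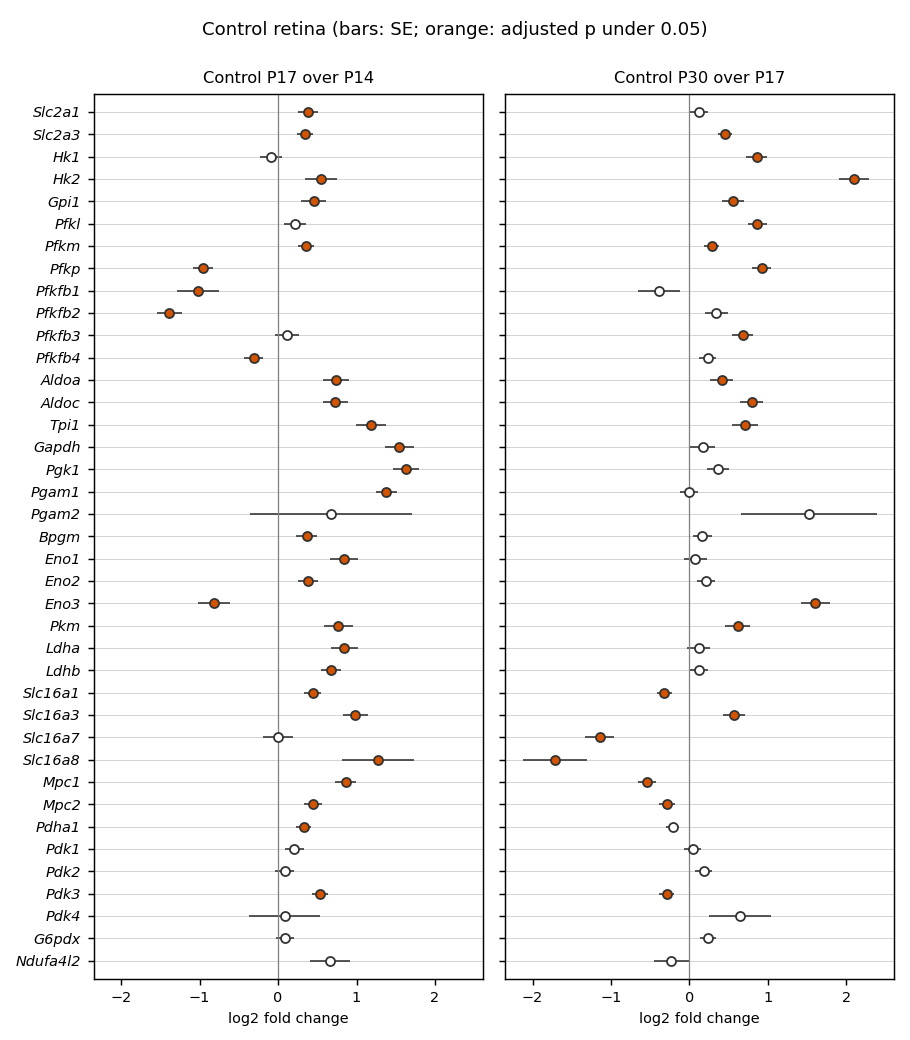
Log2 fold change between ages in control retina (x axis) for the 39 genes, P17 over P14 on the left and P30 over P17 on the right, with bars of 1 SE and orange points where the adjusted p is under 0.05. Pgk1 and Gapdh lead the early step (1.63 and 1.55), and Hk2 leads the later one (2.10).

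Of 67 further genes of the same metabolism, 59 were tested. At P14, 3 were higher in OIR and 0 lower, at P17 9 were higher and 3 lower, and at P30 4 were higher and 2 lower. The shares of all tested genes were 0.723% higher and 0.0955% lower at P14, 7.81% and 6.76% at P17, and 4.96% and 3.63% at P30. The 59 had median log2 fold changes of 0.01, -0.02 and 0.08. Among the oxygen sensing genes, Egln3, a prolyl hydroxylase that marks hypoxia-inducible factor for removal, had 19.4 and 13.4 CPM in OIR and 3.13 and 3.03 CPM in control at P14 (2.41 ± 0.27 SE, adjusted p = 0.000402), and 22.1, 13.9 and 26.6 CPM in OIR and 3.54, 4.15 and 4.67 CPM in control at P17 (2.34 ± 0.22 SE, adjusted p = 5.29e-06). Egln1, the main such hydroxylase, had 0.77 ± 0.14 (SE, adjusted p = 0.0108), 0.67 ± 0.11 (SE, adjusted p = 0.0007) and 0.38 ± 0.11 (SE, adjusted p = 0.045) at P14, P17 and P30. Egln3 was not called at P30, where no gene of the list that holds both had a log2 fold change above 0.385.

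Hif3a, a family member that can restrain the others, was lower at P30 (-0.97 ± 0.17 SE, adjusted p = 0.00474), and Myc, a growth-promoting transcription factor, was higher at P17 (1.18 ± 0.27 SE, adjusted p = 0.00583). In the glycogen list 3 genes were higher at P17. Gys1, the glycogen synthase of muscle and most other tissues, had 39.5, 25.0 and 36.0 CPM in OIR and 19.1, 17.7 and 18.5 CPM in control (0.86 ± 0.13 SE, adjusted p = 0.000297), and it was also higher at P14 (0.90 ± 0.16 SE, adjusted p = 0.01). Gbe1, the branching enzyme, had 0.34 ± 0.09 (SE, adjusted p = 0.0192), and Ppp1r3c, a targeting subunit that favours glycogen build-up, had 0.33 ± 0.10 (SE, adjusted p = 0.0299). Pygb, the brain form of glycogen phosphorylase, was lower (-0.40 ± 0.09 SE, adjusted p = 0.00532).

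Of the remaining lists, Bsg, the partner that carries MCT1 and MCT4 to the membrane, was higher at P30 (0.60 ± 0.17 SE, adjusted p = 0.0367), as were Pgls of the pentose phosphate pathway (0.60 ± 0.15 SE, adjusted p = 0.0236) and the transporter gene Slc2a6 (0.53 ± 0.16 SE, adjusted p = 0.0418). At P17 H6pd, which starts the pentose phosphate pathway in the endoplasmic reticulum (0.42 ± 0.13 SE, adjusted p = 0.0331), and the malic enzyme gene Me1 (0.27 ± 0.08 SE, adjusted p = 0.0334) were higher. Pcx, which makes oxaloacetate from pyruvate, was lower at P17 (-0.48 ± 0.12 SE, adjusted p = 0.0126), and Slc2a13, a myo-inositol carrier, was lower at P17 (-0.43 ± 0.11 SE, adjusted p = 0.0121) and P30 (-0.43 ± 0.11 SE, adjusted p = 0.0262). Of the 7 genes of the pyruvate dehydrogenase complex list edgeR called 0 at each age, with 1, 1 and 2 lower and 0 higher at an unadjusted p under 0.05 at P14, P17 and P30.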

How the data were processed

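Polyadenylated RNA of whole mouse retina was sequenced from Ion Total RNA-seq Kit v2 libraries on an Ion Proton, per the labels' protocols. Per the labels' protocols, Torrent Suite v5.4.0 and its RNA-seq plugin aligned reads to mm10 with STAR and then Bowtie2, and HTSeq and Picard gave the values. The sources used here do not name the aligner versions, the annotation release or the strand setting. The authors deposited raw counts per gene symbol, without normalization.

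Counts entered edgeR 4.0.16 in R 4.3.3 (filterByExpr, 19905 genes kept, TMM scaling, robust quasi-likelihood fit of all 16 libraries with 10 residual degrees of freedom, Benjamini-Hochberg adjustment). The SE is the size of the log2 fold change over the square root of F. Alternatives were RLE and total scaling, no filter, DESeq2 1.42.0, a replicate block, only the compared groups, lens and Y-linked covariates, and single libraries left out. Near copies added in and crossed replicate numbers were chosen after seeing the data. Every member may be named, and those called at 1 age or more, with others of their enzyme step, are given by library where a result turns on them. Other genes of the pathway were named where called, except 1 that is counted but not reported here. The members and lists were chosen with earlier results of these data known. Coordinates are from GENCODE M21 (GRCm38, the build of mm10).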

Additional observations from a re-analysis of the deposited data

Results flagged for a closer look

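The OIR effect at P30 differed from that at P17 for 5 of the 39 genes by the test of the difference itself (edgeR's quasi-likelihood test with Benjamini-Hochberg adjustment). That is 12.8% of the 39, against 9.29% of all tested genes. The effect was smaller at P30 for 10.3% of the 39, against 3.84% of all genes, and larger for 2.56%, against 5.45%. The log2 effect at P30 minus that at P17 was -1.72 ± 0.31 (SE, adjusted p = 0.00483) for Ndufa4l2, -0.94 ± 0.17 (SE, adjusted p = 0.00291) for Pfkp, -0.91 ± 0.19 (SE, adjusted p = 0.0073) for Pfkfb3 and -0.67 ± 0.15 (SE, adjusted p = 0.0124) for Pdk1. For Pfkm it was 0.43 ± 0.13 (SE, adjusted p = 0.0441), a call that ended in 22 of the 28 alternative settings. The differences of Ndufa4l2, Pfkp and Pfkfb3 passed the threshold in each of the 28 alternative settings, that of Pdk1 in all but the fit with a Y-linked covariate (adjusted p = 0.0709).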

How the results depend on the processing

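Counts are of members higher or lower in OIR. A setting also changes how many of all tested genes are called, and those shares are not given here. The counts show how far the calls depend on the setting and are not set against a background. At P14, 6 were higher; no count filter gave 15, DESeq2 11, only the compared groups 15, the lens covariate 3, the Y-linked covariate 3 and leaving out single libraries 3 to 8. None was lower at P14, except 1 with no count filter. At P17, 10 were higher, 4 with the Y-linked covariate, and 8 to 15 with single libraries left out. At P17, 1 was lower, 2 with RLE scaling, no count filter or only the compared groups, 3 with DESeq2, 0 with the Y-linked covariate or without the 2 lens-rich OIR libraries, and 0 to 3 with single libraries left out. At P30, 3 were higher, 8 with no count filter or DESeq2, and 2 to 7 with single libraries left out, and 1 was lower, 0 with only the compared groups, 2 with the Y-linked covariate, and 0 to 2 with single libraries left out. For the difference P17 minus P14, no count filter gave 1 higher and 1 lower. For P30 minus P17, 1 was higher, 0 with total scaling, only the compared groups, the lens or Y-linked covariate or without the lens-rich libraries, and 0 to 1 with single libraries left out, and 4 were lower, 9 with no count filter, 7 with DESeq2, and 4 to 6 with single libraries left out. In control, 24 were higher at P17, 15 with total scaling and 15 to 25 with single libraries left out (5 lower, 3 to 5), and 14 at P30, 9 with total scaling and 12 to 17 (6 lower, 2 with the lens covariate and 3 to 7). The lens covariate ended 8 calls of the later control step, higher and lower together. The cause was not tested. Near copies added in, chosen after seeing the data, gave 7 higher at P14.

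Deviations of same-numbered libraries from their group means correlated at -0.129 at P14, -0.208, 0.021 and -0.187 at P17 and -0.044, 0.007 and 0.049 at P30. With 2 libraries per group at P14 the deviations mirror each other, so differently numbered libraries gave 0.129 by construction. These values do not settle whether replicate numbers pair the libraries. The replicate block gave 4 higher at P14, 9 at P17 and 3 at P30, and 0 higher for P30 minus P17. Crossing the numbers at P14, chosen after seeing the data, gave 3 higher at P14 and 0 for P30 minus P17 in the block.

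Sex, as read from Y-linked RNA, and OIR cannot be told apart at P17. Pdk4, with 4 to 33 counts per library, rests on few reads.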
